A study of Mus musculus with 28 samples.

Results

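L1Md_F, L1Md_F2 and L1Md_F3 are 3 mouse subfamilies of the long interspersed element L1, a retrotransposon. Their copies were taken from the strand-specific count table of annotated transposable elements (TEs) as every row that carried one of these 3 names. This gave 83697 elements of 3404964 TEs: 3852 L1Md_F, 64309 L1Md_F2 and 15536 L1Md_F3. An annotated copy at one genomic position is called an integrant below. Integrants with 16 or more uniquely mapped reads summed over the 16 RNA libraries were tested one by one. They numbered 278 for L1Md_F, 2698 for L1Md_F2 and 619 for L1Md_F3, together 3595 of the 123880 TEs that reached this minimum, and all integrants of a name were also summed.

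The RNA libraries came from J1 mouse embryonic stem cells of the 129S4/SvJae strain, held naive on gelatin in N2B27 medium with LIF and inhibitors of MEK and GSK3 (2i). Cells of 3 genotypes were compared: wild type (WT), a triple knockout of Dnmt1, Dnmt3a and Dnmt3b (DNMT TKO), and a triple knockout of Tet1, Tet2 and Tet3 (TET TKO). Each was transduced with a lentiviral vector that carried a hairpin against Kap1 (shKap1) or none (shEmpty), kept under puromycin and harvested on day 5, so every group shared transduction and selection. There were 3 libraries per hairpin in WT and in DNMT TKO and 2 in TET TKO. Each mutant was a line from another laboratory, so genotype and line cannot be told apart. According to the study's methods, RNA replicates were taken from independent experiments. WT cells with either hairpin were also profiled for 5-hydroxymethylcytosine (5hmC) by hMeDIP, an antibody enrichment of DNA.

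A full-length L1 carries a 5′ untranslated region with a sense promoter, followed by ORF1, which codes for an RNA-binding protein, and ORF2, which codes for an endonuclease and reverse transcriptase. Most copies are truncated at the 5′ end during insertion and have lost the promoter. KAP1, the product of Trim28, is a corepressor that KRAB zinc finger proteins bring to particular TE sequences, where it recruits the histone methyltransferase SETDB1, which deposits H3K9me3. DNMT enzymes write and maintain 5-methylcytosine, and TET enzymes oxidise it to 5hmC.

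Gene reads, which set the library sizes, ranged from 18108431 to 29373696 per library, and these elements took between 1.56% and 2.69% of the reads on TEs. Trim28, the target of the hairpin, was at 1991, 1639 and 1627 counts per 1000000 gene reads (CPM) in WT shEmpty and at 190.0, 155.8 and 149.3 CPM in WT shKap1. It fell by 3.41, 2.13 and 3.47 on the log2 scale in WT, DNMT TKO and TET TKO, and the fall was 1.28 smaller in DNMT TKO than in WT (edgeR adjusted p = 8.0e-04). Dnmt1, Dnmt3a and Dnmt3b were lower in DNMT TKO than in WT (log2 change of -1.65, -3.04 and -2.64), as were Tet1 and Tet2 in TET TKO (-1.49 and -2.16), whereas Tet3 was at 13.9 CPM in WT and 13.8 CPM in TET TKO. Stem cell genes were expressed: Pou5f1 was at 838.2 CPM in WT shEmpty and 772.9 CPM in WT shKap1. Of 6 tested stem cell markers 5 fell in WT, with Sox2 down by 1.34 and Klf4 by 1.32, and 4 fell in each mutant, while 22.7%, 15.6% and 15.1% of all genes fell in WT, DNMT TKO and TET TKO. Of 5 fibroblast markers, 1 rose and 1 fell in WT, 1 rose in DNMT TKO and 1 fell in TET TKO, and Thy1 was higher in both mutants with shEmpty. None of them exceeded 6.35 CPM in any library, and Postn was at or near 0 in all groups. Of 5 markers of differentiated derivatives, 2, 2 and 1 rose and 1, 2 and 0 fell in the 3 genotypes. With shEmpty, Gata6, T and Cdx2 were higher in DNMT TKO than in WT (median log2 difference of the 5 genes 1.12) and 1 was higher and 2 were lower in TET TKO, and none exceeded 13.6 CPM in any library. The part of these markers in the results below was not tested. The 2 libraries of TET TKO shEmpty stood apart from each other, and replicate 1 stood apart from replicates 2 and 3 in WT and DNMT TKO. Results that change without a library are given with it left out.

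Certain short stretches at the 5′ end of long elements were found more often in copies that overlap a region of the deposited KAP1 list than in others. Elements of 5 kb or more were read from the mm9 genome along their own strand, and every 30-base run within their first 500 bases was compared between KAP1-bound elements, which share 1 bp or more with a KAP1 region, and unbound ones. The runs below were chosen because they had the largest difference in share (for L1Md_F3 also the most common run of bound copies), so their shares describe the choice and carry no test. Capitals mark the stretch that the pair of runs has in common, 14 bases for L1Md_F and L1Md_F2 and 23 bases for the L1Md_F3 pair.
L1Md_F: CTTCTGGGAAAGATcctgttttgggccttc
L1Md_F2: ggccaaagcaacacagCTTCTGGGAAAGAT
L1Md_F3, most common: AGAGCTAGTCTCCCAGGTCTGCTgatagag
L1Md_F3, largest difference: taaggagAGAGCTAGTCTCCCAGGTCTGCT

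The L1Md_F run was present in 20 of 46 bound elements (43.5%) and in 8 of 120 unbound elements (6.67%), at a median position of 308.5 bases from the 5′ end, with an example at chr8:85034745-85034774 (+). The L1Md_F2 run was present in 168 of 506 bound (33.2%) and 167 of 3163 unbound elements (5.28%), at a median position of 248, with an example at chr17:34904973-34905002 (-). This example lies in an L1Md_F2 copy whose RNA is described below. The L1Md_F3 run with the largest difference was in 10 of 35 bound (28.6%) and 25 of 688 unbound elements (3.63%), and the most common run in 13 (37.1%) and 130 (18.9%), both with an example in 1 copy at chr1:107435774-107435810 (-). The L1Md_F2 run occurred in 18.7% of long L1Md_F, 9.13% of long L1Md_F2 and 0.277% of long L1Md_F3, whereas the second L1Md_F3 run occurred in 0%, 0.245% and 4.84% of them. None of the 4 runs contained a CpG.

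Most copies were short, and L1Md_F was the most often bound by KAP1. Median length was 960.5 bp for L1Md_F, 647 bp for L1Md_F2 and 448 bp for L1Md_F3, and 166, 3850 and 800 copies reached 5 kb. KAP1 overlapped 479 L1Md_F (12.4%), 1374 L1Md_F2 (2.14%) and 168 L1Md_F3 copies (1.08%), against 0.998% of all TEs. Among copies of 5 kb or more the shares were 27.7% for L1Md_F (46 of 166, exact 95% binomial interval 21.1 to 35.2), 13.2% for L1Md_F2 (510 of 3850) and 4.38% for L1Md_F3 (35 of 800), all below the 34.0% of all TEs of this length. Integrants that passed the read minimum were longer, with medians of 3720, 3774.5 and 4247 bp. They were also more often bound than all copies of their name (41.0%, 12.5% and 5.98%). Of all TEs that passed it 8.15% were bound, more than of L1Md_F3. Just below the minimum, at 15 reads, lay 18, 176 and 47 integrants, and just at it, with 16 reads, 16, 144 and 38. No read at all was found on 61.3% of L1Md_F, 64.0% of L1Md_F2 and 68.0% of L1Md_F3.

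On long copies KAP1 sat at the 5′ end. The centre of the KAP1 region lay within the first 500 bases for 42 of 46 regions on L1Md_F, 432 of 522 on L1Md_F2 and 25 of 35 on L1Md_F3, at median distances of 234, 231 and 379 bases from the start. The median width of these regions was 658, 652 and 712 bp, which limits the position that can be read from them.

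**Figure D1:**
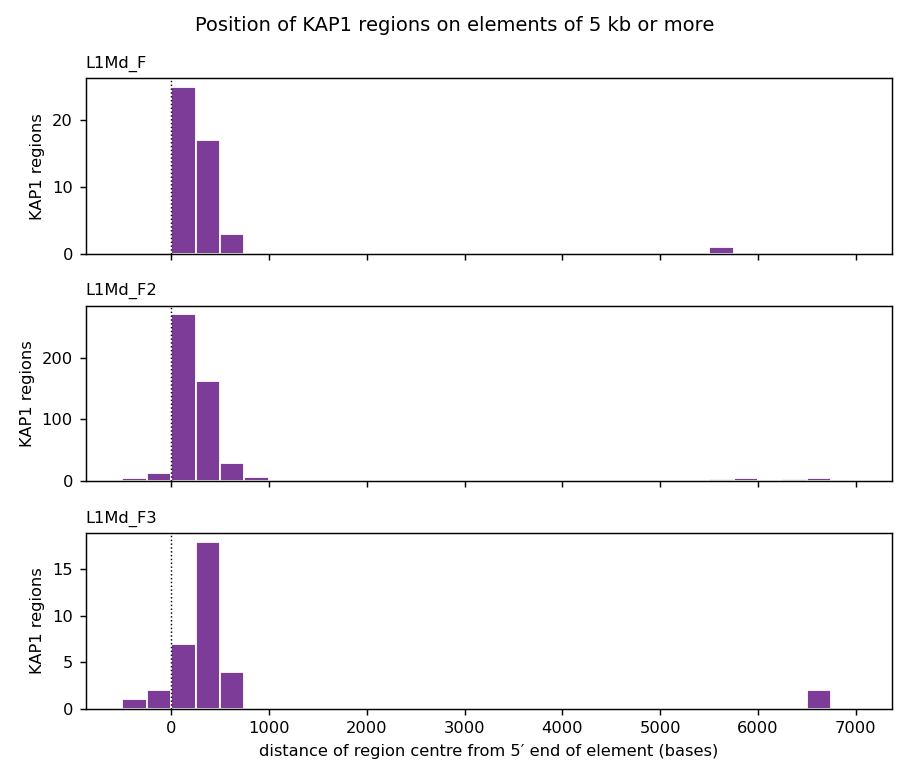
Number of KAP1 regions (y axis) by the distance of the region's centre from the 5′ end of the element in bases (x axis, bins of equal width) for copies of 5 kb or more of each subfamily. Regions gather in the first 500 bases in all 3 subfamilies, with a few past 5000 bases.

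CpG number at the 5′ end also differed between bound and unbound long copies. The first 500 bases held a median of 17 CpGs in bound and 9 in unbound L1Md_F, 14 and 8 in L1Md_F2, and 12 and 10 in L1Md_F3. Over bases 2001 to 2500 the medians were 2.5 and 2 for L1Md_F, 1 and 2 for L1Md_F2, and 3 and 3 for L1Md_F3, so bound copies did not exceed unbound ones there by more than 1 CpG. H3K9me3 regions listed as KAP1-dependent overlapped 56.8% of bound and 9.04% of unbound L1Md_F, 50.4% and 1.70% of L1Md_F2, and 52.4% and 1.65% of L1Md_F3. On copies of 5 kb or more they overlapped 33 of 46 bound and 28 of 120 unbound L1Md_F (71.7% and 23.3%), 302 of 510 and 445 of 3340 L1Md_F2 (59.2% and 13.3%), and 28 of 35 and 109 of 765 L1Md_F3. H3K4me3, a mark of active promoters, was on 2.18% of all L1Md_F, 0.341% of L1Md_F2 and 0.747% of L1Md_F3, and H3K27me3 on 0.649%, 0.521% and 0.457%.

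The first comparison asked how much RNA from these elements accumulated after Kap1 knockdown. L1Md_F summed to 111.1, 106.6 and 101.9 CPM in WT shEmpty and to 165.4, 170.0 and 173.8 CPM in WT shKap1. L1Md_F2 summed to 680.2, 590.0 and 598.4 CPM against 1129, 1139 and 1161 CPM, and L1Md_F3 to 160.5, 139.3 and 140.6 CPM against 289.4, 277.2 and 286.2 CPM. Every shKap1 library was above every shEmpty library for each subfamily. In these bulk samples more RNA per cell and a larger share of expressing cells cannot be told apart. The log2 changes were 0.67 ± 0.07 (SE) for L1Md_F, 0.88 ± 0.07 for L1Md_F2 and 0.95 ± 0.06 for L1Md_F3, with edgeR adjusted p of 1.2e-10, 1.1e-07 and 3.9e-17. Of 5770 TE names tested in this way, 26.7% rose with shKap1 in WT, 30.6% in DNMT TKO and 28.7% in TET TKO, and only 3110 of the names had 16 or more reads. The L1Md_F sum includes 1 exon integrant, described below, with 26.0% of its reads. L1Md_F copies outside genes changed by 1.15 in WT.

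In DNMT TKO L1Md_F went from 58.3, 62.4 and 61.8 CPM to 163.8, 178.0 and 146.0 CPM. L1Md_F2 went from 543.0, 513.0 and 511.2 CPM to 1172, 1316 and 1122 CPM, and L1Md_F3 from 152.0, 143.5 and 148.1 CPM to 321.1, 359.5 and 317.1 CPM. The groups did not overlap, and the log2 changes were 1.42 ± 0.07, 1.20 ± 0.07 and 1.17 ± 0.06, with edgeR adjusted p of 1.9e-20, 2.6e-09 and 3.5e-20. In TET TKO L1Md_F went from 71.0 and 80.4 CPM to 215.6 and 200.9 CPM. L1Md_F2 went from 565.9 and 646.8 CPM to 1578 and 1492 CPM, and L1Md_F3 from 142.0 and 151.0 CPM to 450.7 and 422.5 CPM. Again no library crossed, and the log2 changes were 1.46 ± 0.09, 1.34 ± 0.08 and 1.58 ± 0.07, with edgeR adjusted p of 1.3e-17, 9.3e-09 and 8.2e-21. The median change over all 5770 TE names, of which 3110 had 16 or more reads, was 0.20 in WT, 0.37 in DNMT TKO and 0.33 in TET TKO.

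**Figure D2:**
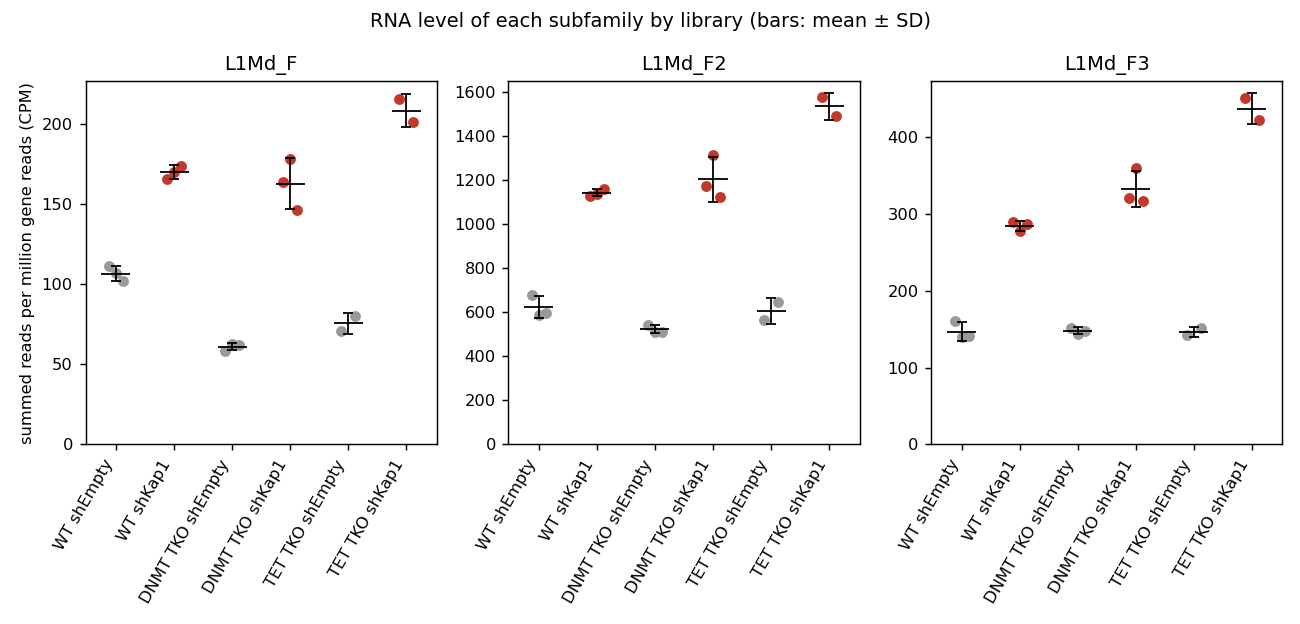
Summed reads of each subfamily per 1000000 gene reads (CPM, y axis, from 0) in every RNA library (points) of the 6 groups, with mean and SD (bars). Every shKap1 library lies above every shEmpty library of its genotype, and L1Md_F with shEmpty is lower in both mutants than in WT.

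The rise was measured against gene reads. TE reads as a whole rose with shKap1. Scaling by TE reads here means library sizes and TMM factors, a trimmed mean over features, taken from the TE counts. It lowered the log2 change of the subfamily sums by 0.66 in WT, 0.86 in DNMT TKO and 0.98 in TET TKO. These shifts are not the rise of the total of TE reads. For sums split by length, gene context or KAP1 the factors came from the split counts, so the shift can differ. On that scale L1Md_F in WT changed by 0.01 (edgeR adjusted p = 1), so the size of its rise depends on the scaling. Of the plain total of TE reads, L1Md_F held 2000 of 926959, 2997 of 1402008 and 2880 of 1428452 in WT shEmpty. In WT shKap1 it held 3156 of 1280001, 3927 of 1643589 and 3261 of 1324516, a larger share in each library.

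Averaged over the 3 genotypes, the difference in response between the subfamilies did not pass. The difference in mean log2 change was 0.04 between L1Md_F and L1Md_F2, -0.05 between L1Md_F and L1Md_F3, and -0.09 between L1Md_F2 and L1Md_F3, with p of 0.46, 0.459 and 0.0675 in a two-sided exact permutation test that exchanged hairpin labels within genotypes. The adjusted p over the 9 pairs compared was 0.542, 0.542 and 0.152. The averages join values of opposite sign: L1Md_F minus L1Md_F2 was -0.21 in WT and 0.21 in DNMT TKO, and L1Md_F minus L1Md_F3 was -0.28 in WT and 0.25 in DNMT TKO. Within single genotypes the difference was not tested. The L1Md_F sum includes 1 exon integrant, described below, that held 26.0% of its reads and did not rise in WT. For copies outside genes, L1Md_F, L1Md_F2 and L1Md_F3 changed by 1.15, 0.98 and 0.95 in WT. There they changed by 1.88, 1.30 and 1.15 in DNMT TKO and by 1.80, 1.62 and 1.62 in TET TKO. The differences between subfamilies outside genes were not tested. Against L1Md_A, a young L1 subfamily, the log2 responses of L1Md_F, L1Md_F2 and L1Md_F3 differed by -0.81, -0.85 and -0.76, so they were smaller, each with an adjusted p of 0.0025 and with the smallest raw p that the permutations allow, 8.33e-04. Against L1Md_T, another young subfamily, the differences were 0.12, 0.08 and 0.17 and did not pass (adjusted p of 0.542, 0.756 and 0.542). Here too the genotypes went apart: L1Md_F minus L1Md_T was 0.53 in WT and -0.62 in DNMT TKO.

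The second comparison asked whether the response differed between the mutants and WT. The log2 response of L1Md_F was larger by 0.75 ± 0.10 in DNMT TKO (edgeR adjusted p = 7.4e-07) and by 0.79 ± 0.11 in TET TKO (adjusted p = 4.6e-06) than in WT. For L1Md_F3 the difference from WT was 0.62 ± 0.09 in TET TKO (adjusted p = 1.5e-05) and 0.22 ± 0.08 in DNMT TKO (adjusted p = 0.20), which did not pass and was 0.10 without WT shEmpty 1. L1Md_F2 differed by 0.46 ± 0.11 in TET TKO (adjusted p = 0.027) and by 0.33 ± 0.10 in DNMT TKO (adjusted p = 0.088), which did not pass either. The latter was 0.21 without WT shEmpty 1 (adjusted p = 0.20), and it passed without DNMT TKO shKap1 1 (0.31, adjusted p = 0.0070), without WT shEmpty 2 (0.37, adjusted p = 0.044), without integrants on exons (0.34, adjusted p = 0.0019) and without the most read integrant (0.48, adjusted p = 4.2e-07). Scaled by TE reads, the differences in TET TKO were 0.47 for L1Md_F, which kept its call (adjusted p = 0.010), and 0.30 for L1Md_F3 (adjusted p = 0.12) and 0.15 for L1Md_F2 (adjusted p = 0.58), which lost it. Of all 5770 names, of which 3110 had 16 or more reads, 2.46% had a larger response in DNMT TKO and 2.93% in TET TKO. Larger responses were also found in other L1 subfamilies. In DNMT TKO L1Md_A, L1Md_T and L1Md_Gf differed from WT by 0.58, 1.90 and 2.07 (edgeR adjusted p of 0.049, 1.5e-04 and 4.1e-16). In TET TKO they differed by 1.45, 0.82 and 1.34 (adjusted p of 3.4e-04, 0.082 and 5.4e-09), and L1Md_T did not pass. Both mutants were set against the same WT libraries. The knockdown itself was weaker in DNMT TKO (Trim28, above) and not detectably different in TET TKO (-0.06, adjusted p = 0.93), and its part in these differences was not tested. The L1Md_F2 difference in TET TKO was 0.41 without chromosomes 6, 8 and 11 (adjusted p = 0.063). It lost its call when any 1 of 6 libraries was left out (all but TET TKO shEmpty 2 among the TET TKO libraries, and the WT shKap1 libraries) and ranged from 0.37 to 0.57 over the 16 omissions, and the L1Md_F difference in TET TKO was 0.63 without integrants in genes of the same strand (adjusted p = 0.052).

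With the empty hairpin, L1Md_F was lower in both mutants than in WT. The CPM values above put every DNMT TKO and every TET TKO shEmpty library below every WT shEmpty library, and the log2 differences from WT were -0.81 ± 0.07 in DNMT TKO (edgeR adjusted p = 4.4e-12) and -0.49 ± 0.08 in TET TKO (adjusted p = 1.9e-05). L1Md_F2 was at -0.25 ± 0.07 in DNMT TKO (adjusted p = 0.025) and -0.04 ± 0.08 in TET TKO, and L1Md_F3 at 0.01 ± 0.06 and -0.00 ± 0.07 (adjusted p = 1 for the last 3, each of which took either sign over the 16 omissions of a library). Over all 5770 names, of which 3110 had 16 or more reads, 5.32% were lower in DNMT TKO and 2.06% in TET TKO. In DNMT TKO L1Md_T and L1Md_Gf were lower too (-2.17 and -2.53, edgeR adjusted p of 1.4e-06 and 2.4e-24). L1Md_A was higher there (0.68, adjusted p = 8.6e-04). In TET TKO L1Md_A, L1Md_T and L1Md_Gf were lower (-0.89, -0.93 and -1.40, adjusted p of 5.6e-04, 0.0042 and 4.0e-14). The same shEmpty libraries enter these differences and, with opposite sign, those of the response. One L1Md_F integrant in an exon, described below, held 26.0% of the L1Md_F reads, and without it the TET TKO value was -0.26 (adjusted p = 0.18). The L1Md_F2 value in DNMT TKO lost its call when any 1 of 11 of the 16 libraries was left out, with values from -0.29 to -0.16, the last without WT shEmpty 1.

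Long copies responded more than short ones. L1Md_F copies of 5 kb or more summed to 6.33, 8.18 and 6.51 CPM in WT shEmpty and 23.5, 23.1 and 25.3 CPM in WT shKap1. In DNMT TKO they went from 3.30, 3.94 and 4.66 CPM to 36.5, 30.9 and 27.6 CPM, and in TET TKO from 4.34 and 4.99 CPM to 31.3 and 28.0 CPM. No shEmpty library came near a shKap1 library. The log2 changes were 1.77 ± 0.14, 2.99 ± 0.14 and 2.67 ± 0.17 in WT, DNMT TKO and TET TKO. L1Md_F copies under 1 kb gave 51.6, 55.2 and 53.0 CPM in WT shEmpty and 52.6, 57.9 and 60.4 CPM in WT shKap1, which overlapped (0.10 ± 0.10, edgeR adjusted p = 0.70), and changed by 0.66 ± 0.10 in DNMT TKO and 1.13 ± 0.12 in TET TKO. A single integrant in an exon of Acer2, described below, supplied 12112 of the 17366 reads of this class (69.7%). Without it the class went from 8.11, 10.7 and 9.62 CPM to 19.6, 21.1 and 22.0 CPM in WT, without overlap, and its log2 changes were 1.13 ± 0.13 in WT (edgeR adjusted p = 1.4e-17), 1.96 ± 0.13 in DNMT TKO and 2.15 ± 0.16 in TET TKO.

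For L1Md_F2 the log2 changes of copies under 1 kb, 1 to 5 kb and 5 kb or more were 0.78, 0.89 and 0.96 in WT, 0.84, 0.97 and 2.12 in DNMT TKO, and 1.14, 1.25 and 1.72 in TET TKO. L1Md_F2 copies of 5 kb or more went from 93.4, 85.2 and 85.2 CPM to 385, 417 and 347 CPM in DNMT TKO, without overlap. For L1Md_F3 the same 3 classes changed by 0.83, 0.70 and 1.32 in WT, by 1.06, 0.82 and 1.58 in DNMT TKO, and by 1.80, 0.97 and 2.21 in TET TKO. The integrant that starts at position 49958805 of chromosome 7 held 29.9% of the L1Md_F3 reads of 1 to 5 kb, and without it this class changed by 0.89, 1.27 and 1.47. Averaged over genotypes, copies of 5 kb or more exceeded those under 1 kb by 1.86 for L1Md_F, 0.69 for L1Md_F2 and 0.48 for L1Md_F3, and those of 1 to 5 kb by 1.13, 0.57 and 0.87. Each of these 6 differences had p = 8.33e-04, the smallest that the exact two-sided permutation test can give. Without the most read integrant of each subfamily, the difference from the class under 1 kb was 0.74 for L1Md_F, and that from the class of 1 to 5 kb was 0.44 for L1Md_F2 and 0.49 for L1Md_F3, each again with an exact permutation p of 8.33e-04. In WT alone the L1Md_F2 gap between the longest and the shortest class was 0.18, against 1.28 in DNMT TKO. Scaled by TE reads, L1Md_F under 1 kb fell below 0 in WT and DNMT TKO, L1Md_F2 under 1 kb in DNMT TKO and L1Md_F3 of 1 to 5 kb in all 3 genotypes, each with all integrants of the class included.

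**Figure D3:**
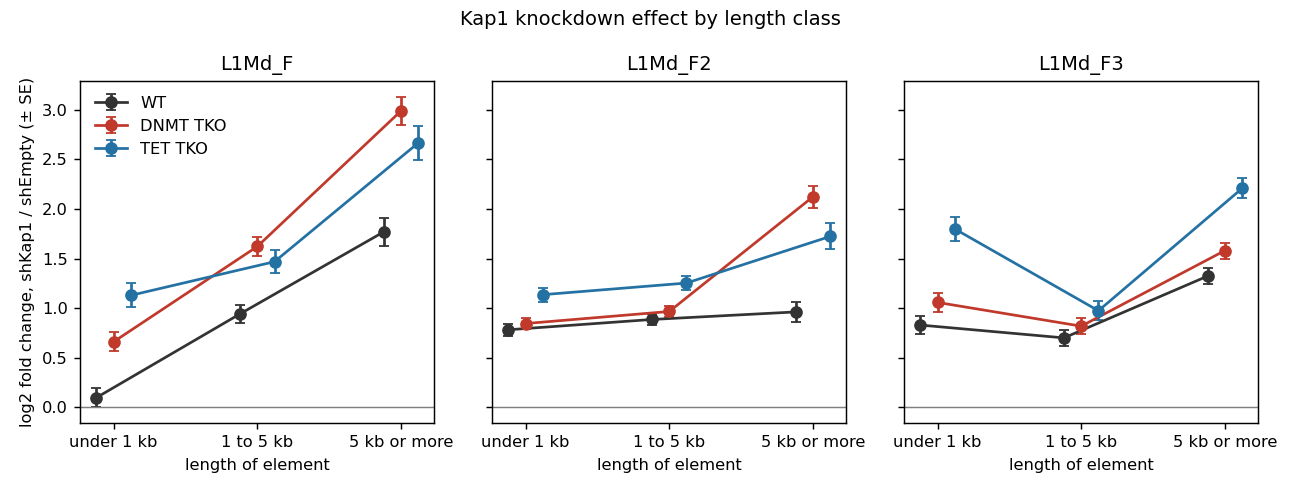
Log2 change with shKap1 (y axis, edgeR, bars: SE) of the summed reads of copies under 1 kb, 1 to 5 kb and 5 kb or more (x axis) for each subfamily (panels) and genotype (colours). The class of 5 kb or more has the highest value of its genotype in every panel, and L1Md_F under 1 kb in WT sits at 0.10, or at 1.13 without its most read integrant.

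The difference in response between the mutants and WT was also taken by length. Between DNMT TKO and WT the log2 difference was 1.22 ± 0.19 for L1Md_F (edgeR adjusted p = 2.0e-07), 1.16 ± 0.15 for L1Md_F2 (adjusted p = 3.0e-04) and 0.26 ± 0.11 for L1Md_F3 (adjusted p = 0.29) in the class of 5 kb or more. In the class of 1 to 5 kb it was 0.68 (adjusted p = 5.6e-05), 0.08 and 0.12, and in the class under 1 kb 0.56 (adjusted p = 0.0025), 0.06 and 0.23, so L1Md_F passed in every class and L1Md_F2 in the longest. Without the most read integrant of each subfamily, the difference was 0.83 for L1Md_F under 1 kb, and L1Md_F2 and L1Md_F3 of 1 to 5 kb passed too (0.40, adjusted p = 3.8e-05, and 0.38, adjusted p = 0.027). Between TET TKO and WT the copies of 5 kb or more differed by 0.90, 0.76 and 0.88, and all passed (edgeR adjusted p of 0.0025, 0.021 and 6.4e-09). Copies under 1 kb also passed, with 1.03, 0.35 and 0.97 (adjusted p of 3.4e-08, 0.0074 and 7.9e-08), and copies of 1 to 5 kb gave 0.53, 0.37 and 0.27, of which the last did not pass (adjusted p = 0.34) but was 0.58 without the most read integrant (adjusted p = 5.1e-04). Whether these differences vary with length was not tested.

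KAP1-bound copies rose more than unbound ones for L1Md_F3. The deposited KAP1 list was used for every genotype, so bound names the same copies in each. KAP1 binding in the mutant lines was not measured in these samples. Bound L1Md_F3 copies summed to 7.61, 8.36 and 8.10 CPM in WT shEmpty and to 30.2, 24.9 and 22.0 CPM in WT shKap1. In DNMT TKO the values were 4.06, 4.18 and 5.09 CPM and then 32.2, 31.8 and 31.8 CPM, and in TET TKO 4.16 and 4.77 CPM and then 31.6 and 24.9 CPM. The hairpin groups were far apart in all 3 genotypes. The log2 changes of bound copies were 1.68, 2.84 and 2.66 in WT, DNMT TKO and TET TKO, against 0.90, 1.07 and 1.52 for unbound copies, a mean difference of 1.23 (exact permutation p = 8.33e-04, adjusted over 3 subfamilies p = 0.0025). Without the most read bound and the most read unbound integrant the difference was 0.50 (exact permutation p = 0.018). Bound and unbound copies were not matched for length: copies of 5 kb or more held 4823 of 6114 bound and 29371 of 81843 unbound reads. In the class of 1 to 5 kb, bound and unbound L1Md_F3 changed by 0.65 and 0.70 in WT. They changed by 2.67 and 0.77 in DNMT TKO and by 2.80 and 0.93 in TET TKO.

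For L1Md_F bound copies changed by 1.27, 2.42 and 1.43 and unbound copies by 0.50, 1.20 and 1.47, the value of unbound copies in WT being -0.26 when scaled by TE reads. The mean difference of 0.66 passed (exact permutation p = 0.00333, adjusted p = 0.005) but came from WT (0.78) and DNMT TKO (1.22) and not from TET TKO (-0.03). It depended on how copies were split: without integrants in genes of the same strand it was 0.12 (exact permutation p = 0.41), and with a reciprocal overlap of 25% as the definition of bound it was -0.04 (p = 0.84). For L1Md_F2 bound copies changed by 0.86, 2.05 and 1.23 and unbound copies by 0.88, 1.13 and 1.35, and the mean difference of 0.26 did not pass (exact permutation p = 0.095). The genotypes again went apart, with -0.02 in WT, 0.93 in DNMT TKO and -0.13 in TET TKO. The L1Md_F2 difference was 0.45 without its most read bound and its most read unbound integrant (exact permutation p = 0.0042).

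Among copies of 5 kb or more, both bound and unbound ones rose in every genotype and subfamily. Bound L1Md_F changed by 2.10 ± 0.21, 4.05 ± 0.24 and 2.82 ± 0.27 in WT, DNMT TKO and TET TKO, and unbound L1Md_F by 1.5 ± 0.20, 2.39 ± 0.21 and 2.58 ± 0.25. Bound L1Md_F2 changed by 0.97, 2.43 and 1.48 and unbound by 0.96, 2.04 and 1.79, and bound L1Md_F3 by 1.92, 2.84 and 2.63 and unbound by 1.21, 1.42 and 2.16. The difference between bound and unbound copies within this length was not tested. With shEmpty, the bound long copies of L1Md_F and L1Md_F2 were lower in DNMT TKO than in WT by log2 differences of -1.56 ± 0.24 and -1.44 ± 0.13 (edgeR adjusted p of 6.7e-09 and 2.0e-28). Unbound long L1Md_F2 (-0.88, adjusted p = 3.3e-21) and bound long L1Md_F3 (-0.74, adjusted p = 0.0015) were lower too, whereas unbound long L1Md_F (-0.48, adjusted p = 0.16) and L1Md_F3 (0.23, adjusted p = 0.27) did not pass. In TET TKO the bound long copies were lower as well, at -0.83, -0.47 and -0.76 for L1Md_F, L1Md_F2 and L1Md_F3 (adjusted p of 0.023, 0.012 and 0.0074), and the unbound ones did not pass (-0.45, -0.29 and -0.19, adjusted p of 0.42, 0.058 and 0.79).

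**Figure D4:**
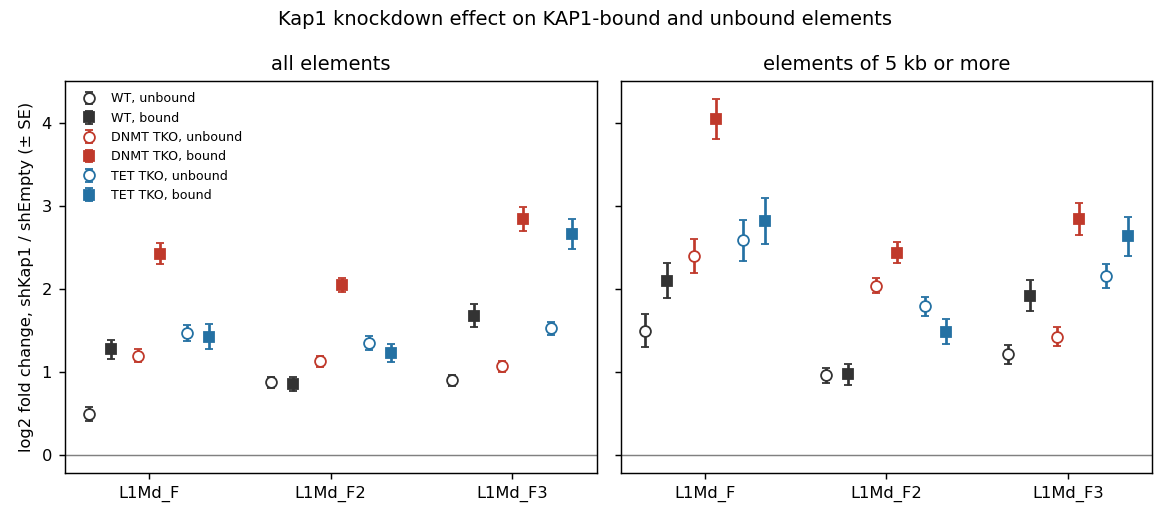
Log2 change with shKap1 (y axis, edgeR, bars: SE) of KAP1-bound and unbound copies by subfamily and genotype, over all lengths (left) and over copies of 5 kb or more (right). Bound L1Md_F3 lies above unbound L1Md_F3 in all 3 genotypes, and in TET TKO bound L1Md_F2 lies below unbound L1Md_F2.

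Reads that a host gene can supply were counted apart. Copies in a gene of the same strand held 30.7% of L1Md_F, 19.9% of L1Md_F2 and 9.80% of L1Md_F3 reads, and copies on exons 28.2%, 2.91% and 1.19%. The 198 L1Md_F copies in genes of the same strand changed by -0.20 in WT (edgeR adjusted p = 0.16), 0.42 in DNMT TKO and 0.60 in TET TKO, whereas the 3279 copies outside genes changed by 1.15, 1.88 and 1.80. The value in genes mostly describes 1 copy, since the Acer2 exon integrant held 84.5% of the reads of the 198. Without it they changed by 0.26 ± 0.16 in WT (edgeR adjusted p = 0.35), 1.43 ± 0.17 in DNMT TKO and 0.88 ± 0.20 in TET TKO. For L1Md_F2 the values were 0.59, 0.68 and 0.55 in genes of the same strand and 0.98, 1.30 and 1.62 outside genes, and for L1Md_F3 0.70, 0.82 and 0.78 and then 0.95, 1.15 and 1.62. Outside genes the shEmpty level of L1Md_F was also lower in DNMT TKO than in WT (-0.75 ± 0.08, adjusted p = 3.5e-17), and in TET TKO the difference there was -0.23 ± 0.09 (adjusted p = 0.14). Where these sets were scaled by TE reads, copies in genes of the same strand turned negative in DNMT TKO and TET TKO for L1Md_F, in all 3 genotypes for L1Md_F2 and in TET TKO for L1Md_F3.

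Taken one by one, more integrants rose than fell. The read minimum favours integrants that are high in some group: 11 L1Md_F, 107 L1Md_F2 and 20 L1Md_F3 integrants passed it with no read in the 8 shEmpty libraries and 0, 3 and 0 with none in the 8 shKap1 libraries, so the following counts describe these integrants and support no comparison. A call means an edgeR adjusted p under 0.05 and a change of at least 2-fold. In WT 60 of 278 L1Md_F (21.6%), 447 of 2698 L1Md_F2 (16.6%) and 90 of 619 L1Md_F3 (14.5%) integrants rose, against 12.1% of all tested TEs. In DNMT TKO 106, 712 and 176 rose (38.1%, 26.4% and 28.4%, all TEs 15.0%), and in TET TKO 62, 564 and 137 (22.3%, 20.9% and 22.1%, all TEs 14.7%). DESeq2 called fewer rises, 32, 260 and 53 in WT (all TEs 7.85%), 45, 314 and 72 in DNMT TKO (all TEs 8.65%) and 27, 288 and 62 in TET TKO (all TEs 8.38%), and gave no adjusted p to 96, 1043 and 248 of the integrants in WT. Falls numbered 1, 37 and 5 in WT (all TEs 2.05%), 0, 11 and 1 in DNMT TKO (all TEs 0.944%) and 1, 18 and 4 in TET TKO (all TEs 0.971%). Single libraries moved some of these counts: L1Md_F rises in TET TKO were 38 without TET TKO shEmpty 2, and L1Md_F3 rises were 74 in TET TKO without TET TKO shEmpty 1 and 115 in DNMT TKO without DNMT TKO shEmpty 2. Falls of the 3 subfamilies together were 7 in DNMT TKO without DNMT TKO shEmpty 2 and 14 in TET TKO without TET TKO shKap1 2.

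Of the 3595 integrants, 261 rose in all 3 genotypes (7.26%, all tested TEs 6.43%), 382 in a pair of them (10.6%, all TEs 5.97%) and 807 in a single genotype (22.4%, all TEs 10.6%). Of the last, 489 did so in DNMT TKO, 217 in TET TKO and 101 in WT (13.6%, 6.04% and 2.81% of the 3595, against 5.02%, 3.59% and 2.03% of all TEs). A call in a single genotype is no test of a difference. In the test of the difference itself, 7 L1Md_F, 61 L1Md_F2 and 13 L1Md_F3 integrants had a larger response in DNMT TKO than in WT and 1, 12 and 6 a smaller one (all TEs 1.33% and 0.473%). In TET TKO the numbers were 5, 26 and 8 larger and 3, 10 and 1 smaller (all TEs 0.831% and 0.242%). With shEmpty, 37 L1Md_F, 318 L1Md_F2 and 61 L1Md_F3 integrants were lower in DNMT TKO than in WT and 10, 98 and 29 higher (all TEs 6.45% and 3.48%), and in TET TKO 7, 87 and 20 were lower and 8, 66 and 10 higher (all TEs 2.33% and 1.74%). These counts leaned on single libraries. The 114 integrants lower in TET TKO became 42 without TET TKO shEmpty 1 and 58 without TET TKO shEmpty 2, and the 84 higher ones 53 without the latter. The 416 lower in DNMT TKO became 238 without DNMT TKO shEmpty 2 and 257 without DNMT TKO shEmpty 3. The 81 larger responses in DNMT TKO became 49, 51 and 53 without DNMT TKO shEmpty 2, shEmpty 3 and shKap1 2, and the 19 smaller ones 12 without DNMT TKO shEmpty 3 or WT shEmpty 3. The 39 larger responses in TET TKO became 17, 25, 23 and 24 without TET TKO shEmpty 1, TET TKO shEmpty 2, TET TKO shKap1 1 and WT shEmpty 3, and the 14 smaller ones 8, 8 and 7 without TET TKO shEmpty 2, TET TKO shKap1 2 and WT shEmpty 3. As a description of these read-filtered integrants, the median log2 change of L1Md_F, L1Md_F2 and L1Md_F3 was 1.22, 0.69 and 0.70 in WT (all tested TEs 0.23), 2.47, 1.76 and 1.74 in DNMT TKO (0.27) and 1.74, 1.38 and 1.64 in TET TKO (0.33).

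The rises among these read-filtered integrants are given by KAP1 binding as a description. In WT 31 of 114 bound and 29 of 164 unbound L1Md_F integrants rose (27.2% and 17.7%). For L1Md_F2 it was 56 of 336 and 391 of 2362 (16.7% and 16.6%), and for L1Md_F3 5 of 37 and 85 of 582 (13.5% and 14.6%). In DNMT TKO the shares of bound and unbound integrants that rose were 39.5% and 37.2% for L1Md_F, 35.7% and 25.1% for L1Md_F2 and 37.8% and 27.8% for L1Md_F3, and in TET TKO 20.2% and 23.8%, 16.4% and 21.5%, and 35.1% and 21.3%. Over all tested TEs 47.7% of bound and 8.97% of unbound integrants rose in WT, 64.9% and 10.6% in DNMT TKO and 52.5% and 11.3% in TET TKO. The difference between bound and unbound shares was not tested. Unbound integrants with a KAP1 region within 5 kb rose in 12 of 37 cases for L1Md_F, 85 of 325 for L1Md_F2 and 21 of 87 for L1Md_F3 in WT, and those farther away in 17 of 127, 306 of 2037 and 64 of 495. The shares over all TEs were 22.3% and 7.64%. In DNMT TKO 43.2% of L1Md_F, 37.2% of L1Md_F2 and 37.9% of L1Md_F3 rose within 5 kb and 35.4%, 23.1% and 26.1% farther away (all TEs 25.6% and 9.11%). In TET TKO the order was the other way for L1Md_F, with 8 of 37 (21.6%) within 5 kb and 31 of 127 (24.4%) farther away, while L1Md_F2 had 32.9% and 19.7% and L1Md_F3 31.0% and 19.6% (all TEs 24.2% and 10.0%).

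Some risen copies lay beside risen LTR elements. A risen LTR element within 5 kb on the same strand was found for 14 of 60 risen L1Md_F (23.3%), 155 of 447 risen L1Md_F2 (34.7%) and 27 of 90 risen L1Md_F3 integrants (30%) in WT, and for 4.59%, 3.73% and 4.54% of the other tested ones. Over all tested TEs other than LTR elements the shares were 39.3% of the risen and 2.83% of the others, so those of the 3 subfamilies lay below the first and above the second. In TET TKO the shares were 24.2%, 34.9% and 29.9% against 2.31%, 3.89% and 2.90%, and in DNMT TKO 13.2%, 20.8% and 20.5% against 5.23%, 4.53% and 3.84% (all TEs other than LTR elements 40.7% against 2.10% and 24.2% against 2.81%). Of the tested integrants, 49 L1Md_F, 381 L1Md_F2 and 100 L1Md_F3 had another tested one within 500 bp on the same strand. Whether such neighbours share transcripts was not tested, and integrants are not taken as independent of each other.

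The most read L1Md_F integrant, chr4:86577932-86578406 (475 bp, in an exon of Acer2, which codes for a ceramidase), did not rise in WT. It had 783, 1250 and 1225 reads in WT shEmpty and 630, 851 and 720 in WT shKap1, a log2 change of -0.28 ± 0.14 (edgeR adjusted p = 0.19). In DNMT TKO it had 437, 760 and 708 reads with shEmpty and 595, 714 and 753 with shKap1, and in TET TKO 697 and 591 and then 729 and 669. Its shEmpty level was lower in both mutants (-0.79 ± 0.14 and -0.90 ± 0.16, adjusted p of 5.3e-07 and 1.5e-06). These reads overlap exon sequence and were not separated from the gene's own. The reads counted on Acer2 itself changed with shKap1 by 0.32 in WT (edgeR adjusted p = 0.037), 0.18 in DNMT TKO (adjusted p = 0.25) and 0.96 in TET TKO (adjusted p = 6.9e-05). With shEmpty they were higher in DNMT TKO than in WT by 0.76 (adjusted p = 3.8e-05) and lower in TET TKO (-0.54, adjusted p = 0.0061), so gene and integrant differed in sign in DNMT TKO.

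Neighbouring long L1Md_F copies on chromosome 13 were among the largest called rises of their subfamily in WT. The copy at chr13:13994825-14000000 (+, KAP1-bound) had 1, 2 and 0 reads in WT shEmpty and 97, 111 and 100 in WT shKap1. In DNMT TKO it had 4, 4 and 6 and then 259, 161 and 174 reads, and in TET TKO 0 and 1 and then 98 and 89. Its log2 changes were 6.79 ± 0.38, 5.51 ± 0.30 and 7.60 ± 0.51 (edgeR adjusted p of 2.5e-67, 2.8e-74 and 3.8e-47). The copy just before it, chr13:13988927-13994566 (+, 89 bp from a KAP1 region), had 0, 1 and 0 reads in WT shEmpty and 78, 80 and 66 in WT shKap1, 2, 6 and 14 and then 176, 114 and 148 in DNMT TKO, and 3 and 2 and then 67 and 56 in TET TKO. The pair lies on one strand with only a short L1 piece between and may be read from 1 transcript.

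The L1Md_F2 copy that carries the printed run, chr17:34899257-34905292 (-, 6036 bp, KAP1-bound), had no read in the 3 WT shEmpty libraries and 79, 86 and 57 in WT shKap1. In DNMT TKO it went from 1, 2 and 2 to 481, 347 and 356 reads (7.92 ± 0.32, edgeR adjusted p = 1.1e-128), and in TET TKO from 5 and 3 to 79 and 50 (4.37 ± 0.37, adjusted p = 5.3e-30). Reads with shKap1 were thus highest in DNMT TKO. The response in TET TKO was smaller than in WT (-5.04 ± 1.03, adjusted p = 0.016), a value that rests on the absence of reads in WT shEmpty. The copy at chr12:75897562-75903141 had no read in WT shEmpty and TET TKO shEmpty, 12, 19 and 22 in WT shKap1 and 66 and 54 in TET TKO shKap1, and in DNMT TKO it went from 1, 2 and 1 to 54, 50 and 70 (5.42 ± 0.46, adjusted p = 4.3e-30).

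Among L1Md_F3, the copy at chr13:22831713-22836901 had 2, 0 and 4 reads in WT shEmpty and 190, 128 and 123 in WT shKap1. In DNMT TKO it had 13, 10 and 9 and then 132, 101 and 147, and in TET TKO 1 and 1 and then 134 and 109. The log2 changes were 6.41 ± 0.34, 3.65 ± 0.26 and 7.15 ± 0.46, and the response in DNMT TKO was smaller than in WT by a log2 difference of -2.77 ± 0.51 (edgeR adjusted p = 7.7e-05). The shorter copy at chr2:37058488-37059569 went from 0, 1 and 0 to 74, 68 and 53 reads in WT, from 1, 0 and 1 to 39, 47 and 39 in DNMT TKO and from 2 and 2 to 133 and 127 in TET TKO. These copies rose in all 3 genotypes.

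For other integrants the difference between lines was larger than that between hairpins. The L1Md_F3 copy at chr3:22177864-22183999 had 9, 8 and 6 reads in WT shEmpty, 420, 455 and 374 in DNMT TKO shEmpty and 204 and 207 in TET TKO shEmpty (5.74 ± 0.22 and 4.55 ± 0.23 above WT, edgeR adjusted p of 1.2e-141 and 6.3e-81). With shKap1 it had 45, 49 and 48 reads in WT, 688, 617 and 758 in DNMT TKO and 700 and 587 in TET TKO. The L1Md_F2 copy at chr12:19867521-19870397, the most read of its subfamily, had 595, 755 and 706 reads in WT shEmpty and 1762, 2444 and 2178 in DNMT TKO shEmpty, and rose with shKap1 in WT (1226, 1348 and 1070 reads, 1.08 ± 0.13) but by 0.13 ± 0.12 in DNMT TKO (adjusted p = 0.62). In the opposite direction, the L1Md_F2 piece at chr12:23012899-23014753, in 2410018L13Rik, had 449, 451 and 399 reads in WT shEmpty and 1, 2 and 3 in DNMT TKO shEmpty (-7.74 ± 0.26, adjusted p = 1.6e-192), while TET TKO shEmpty had 751 and 754. Its host gene was lower by a log2 difference of -6.05 in DNMT TKO.

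Falls were few and rested on lower counts. The L1Md_F2 integrant that starts at position 73511274 of chromosome 16 fell in DNMT TKO from 52, 115 and 108 to 16, 18 and 32 reads (-1.93 ± 0.29, edgeR adjusted p = 3.8e-10). Its reads were also fewer with shKap1 in WT (5, 13 and 10, then 2, 2 and 1) and in TET TKO (18 and 16, then 3 and 1). The L1Md_F3 copy at chr18:85869932-85874747 went from 84 and 96 to 5 and 5 reads in TET TKO (-3.72 ± 0.47, adjusted p = 7.3e-14), whereas WT libraries held at most 1 read with either hairpin. The fall of the L1Md_F2 integrant that starts at position 22926622 of chromosome 19, in Trpm3, in TET TKO was -3.49 ± 0.61 (adjusted p = 1.4e-06) and rested on 99 reads in TET TKO shEmpty 2 against 7 in TET TKO shEmpty 1, and was -0.50 without the former and -2.32 with limma-voom (adjusted p = 0.19). Reads on Trpm3 itself changed by -1.95 in TET TKO (edgeR adjusted p = 0.28). Some integrants had reads in certain lines only. The L1Md_F2 piece at chr12:48139397-48140362 had 25, 32 and 25 reads in DNMT TKO shEmpty and 21, 23 and 19 in DNMT TKO shKap1 and none in the WT and TET TKO libraries. The L1Md_F2 piece at chr5:105312537-105313610 had no read in WT, 0, 2 and 1 and then 30, 26 and 49 in DNMT TKO, a rise of 5.06 ± 0.54 (adjusted p = 1.7e-19), and 35 and 33 and then 33 and 30 in TET TKO (0.31, adjusted p = 0.73).

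For 5hmC in WT cells only replicate 1 could be assigned to its groups, with 1 enriched and 1 input library per hairpin, so the values below have no replicate and no test. Enrichment was taken as the log2 ratio of 5hmC to input reads over the KAP1 regions that overlap these elements, with at least 10 reads in the inputs. The median change with shKap1 was 0.68 over 441 regions on L1Md_F (quartiles 0.07 and 1.27), 0.60 over 1247 regions on L1Md_F2 (-0.01 and 1.19) and 0.64 over 150 regions on L1Md_F3 (-0.05 and 1.25). All 25992 KAP1 regions had a median of 0.64 (0.06 and 1.20), so the medians of the 3 subfamilies lay near that of the regions as a whole. By summed reads, L1Md_F2 regions held 7.80% of the 5hmC reads over all KAP1 regions with shEmpty and 5.45% with shKap1. In the inputs they held 4.63% and 4.81%. A share of summed reads follows the most read regions, unlike the medians above. Regions on L1Md_F2 copies of 5 kb or more held 14067 of the 85179 L1Md_F2 5hmC reads with shEmpty and 23907 of 98373 with shKap1. How many regions set the share was not tested. On copies of 5 kb or more the medians were 1.02 for 46 regions on L1Md_F, 0.53 for 517 on L1Md_F2 and 0.36 for 35 on L1Md_F3. Regions on integrants that rose in WT had a median of 1.05 (90 regions) and those on tested integrants that did not 0.57 (400 regions). The size depended on the scaling: a single H3K9me3 region on chromosome 9 took 35.9% of the 5hmC reads with shEmpty and 22.5% with shKap1. Without it the medians of L1Md_F, L1Md_F2 and L1Md_F3 over copies of all lengths were 0.31, 0.23 and 0.27. The medians on copies of 5 kb or more and by rise in WT are given only with it included.

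Genes known to control L1 and heterochromatin were listed with earlier results in view, and 35 of 37 could be tested. In WT 7 rose and 17 fell with shKap1, in DNMT TKO 6 and 17, and in TET TKO 7 and 10, while 23.0% of all genes rose and 22.7% fell in WT, 19.7% and 15.6% in DNMT TKO, and 15.3% and 15.1% in TET TKO. Trim28 is one of the falls. Uhrf1, which brings DNMT1 to replicated DNA, fell by 0.99, 0.73 and 0.60 on the log2 scale. Setdb1 fell by 0.29 in WT and by 0.56 in DNMT TKO (0.02 in TET TKO, not called), and Atf7ip, a partner of SETDB1, changed by -0.55, -0.22 and -0.74. Suv39h1, another H3K9 methyltransferase, rose by 1.21, 0.55 and 0.89, and Pphln1, a subunit of the HUSH complex, which silences L1, rose by 0.70, 0.58 and 0.34. Gm6871, a KRAB zinc finger gene, changed by -0.10 in WT and did not pass.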

How the data were processed

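RNA was measured in 16 libraries and 5hmC in 8, of which 4, all replicate 2, could not be assigned and enter no comparison. Per the labels and the study's methods, the authors mapped RNA reads to mm9 with HISAT2, kept uniquely mapped reads and deposited whole-number read counts per gene (featureCounts, strand-specific) and per merged RepeatMasker element (bedtools multicov, strand-specific). Reads that fit several copies equally well are therefore not counted. KAP1 and histone mark regions were deposited as lists (MACS 1.4 and SICER 1.1) with 5hmC and input read counts over them. The submitters' processing notes name CASAVA 1.82, Bowtie2 2.2.1, HISAT2 2.0.1, featureCounts 1.5.1, bedtools 2.25 and HTSeq 0.6.

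From these counts, edgeR 4.0.16 (R 4.3.3) was fitted over 6 groups with a robust quasi-likelihood test, with library sizes and TMM factors from gene counts and Benjamini-Hochberg adjustment within each contrast, over all TEs or all TE names, so that printed adjusted p-values are not specific to these subfamilies. Differences between subfamilies or classes were tested by exact permutation of hairpin labels within genotypes (2400 arrangements). Overlap meant at least 1 bp. For 5hmC, 1 read was added to each count, scaled to the reads over all deposited regions. Sequences were read from the mm9 assembly with pysam 0.24.0. Depth was 18108431 to 29373696 gene reads per library, and intervals cover counting error only. Alternatives were other read minimums, scalings, limma 3.58.1 (voom), DESeq2 1.42.0, the replicate number as a block, other definitions of bound and leaving out each library. Leaving out the most read integrant, exons or chromosomes 6, 8 and 11, and other fits of the length and gene classes, were chosen after seeing the data. The code was tested on simulated data with log2 changes of 1.5 in WT, called at an adjusted p under 0.05 and 2-fold. It recovered 54% of changed integrants with a mean of 10 or more reads. For subfamily sums with a mean of 20 or more reads it recovered 93%. Counts of called integrants therefore miss changes. The members and lists were chosen with earlier results of these data known. Integrants were named by rule: the 2 most read per subfamily, and the largest called rises and falls with at least 100 reads in each contrast. Not every integrant so named is described. No column of another series was used.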

Additional observations from a re-analysis of the deposited data

Results flagged for a closer look

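Each result here is a difference between a mutant and WT in the response to shKap1, from the interaction term of the edgeR fit. The log2 difference was 0.75 for L1Md_F in DNMT TKO, 0.79 for L1Md_F in TET TKO, 0.46 for L1Md_F2 in TET TKO and 0.62 for L1Md_F3 in TET TKO. All 4 use the same 6 WT libraries. Scaled by TE reads, the L1Md_F2 and L1Md_F3 differences in TET TKO lost their calls (0.15, edgeR adjusted p = 0.58, and 0.30, adjusted p = 0.12), and the L1Md_F2 call was also lost without any 1 of 6 libraries and without chromosomes 6, 8 and 11. The L1Md_F difference in TET TKO lost its call without integrants in genes of the same strand (0.63, adjusted p = 0.052).

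Among called differences of integrants with at least 100 reads, the largest in either direction in each mutant were these, all on L1Md_F2. The copy at chr12:25017870-25020713 went from 55, 53 and 54 to 415, 603 and 447 reads in WT and from 122 and 78 to 692 and 546 in TET TKO, but from 2, 2 and 6 to 6, 1 and 1 in DNMT TKO (DNMT TKO minus WT -3.60 ± 0.54, edgeR adjusted p = 1.5e-04). Without DNMT TKO shEmpty replicate 3 the difference was -2.97 and lost its call. It rests on few reads in DNMT TKO with either hairpin. The L1Md_F2 piece at chr12:23012899-23014753, described above, also had few there, with 1, 2 and 3 and then 1, 0 and 0. The copy that starts at position 161083350 of chromosome X had 8, 17 and 31 reads in WT shEmpty and 3, 4 and 9 in WT shKap1, and 0, 0 and 0 and then 1, 3 and 4 in DNMT TKO, so that the difference of 5.96 ± 1.42 (edgeR adjusted p = 0.0032) rests on 8 reads in that genotype. The piece at chr8:67746197-67746396 had 14, 13 and 13 reads and then 11, 4 and 7 in WT, against none and then 11 and 12 in TET TKO (7.31 ± 1.29, edgeR adjusted p = 1.1e-05), a size that depends on the fit's prior count because the shEmpty libraries held no read, and for which DESeq2 gave no adjusted p. The piece at chr1:115856968-115857741, in 9330185C12Rik, had 0, 0 and 0 and then 4, 4 and 0 reads in WT and 9 and 31 and then 9 and 7 in TET TKO (-5.58 ± 1.42, edgeR adjusted p = 0.012), again with no read in WT shEmpty, and it lost its call when any 1 of 5 libraries was left out (values from -5.56 to -4.36), with limma-voom (-2.99, adjusted p = 0.20) and with at least 50 reads (-5.58, adjusted p = 0.13), while DESeq2 gave no adjusted p. Reads on 9330185C12Rik itself, on the same strand, differed in the same direction (TET TKO minus WT -6.59, edgeR adjusted p = 4.7e-04), rose in WT (7.13, adjusted p = 2.9e-06) and were higher in TET TKO than in WT with shEmpty (8.54, adjusted p = 1.6e-07), and the integrant's reads were not separated from them.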

How the results depend on the processing

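Of the values that answer a comparison, 295 counted as unchanged when a setting other than the libraries was changed. Of the others, 47 were weaker, 9 stronger, 7 moved and 1 reversed. For tested values, unchanged means the same direction and side of the threshold, or not passing in either fit, whatever the sign. Counts of integrants were unchanged within a ratio of 1.5. When a library was left out, 663 were unchanged in this sense, 39 weaker and 2 stronger. The 663 include shEmpty differences that took either sign, those of L1Md_F2 in TET TKO and of L1Md_F3 in both mutants. Among named integrants these numbers were 263, 13 weaker and 4 stronger, and 717, 34 weaker and 1 stronger. For sums split by length, gene context or KAP1 they were 493, 46 weaker, 17 stronger and 14 reversed, and 288 with none changed when a library was left out of the KAP1 split. Causes were not tested unless the setting itself is the cause. Single integrants could rest on few reads, since the minimum of 16 reads is 1 read per library, and reads that map to several copies were not counted.

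For 5hmC the medians of L1Md_F, L1Md_F2 and L1Md_F3 were 0.29, 0.21 and 0.25 when scaled to H3K4me3 regions and 0.31, 0.23 and 0.27 without the most read region, and L1Md_F2 had 0.79 with at least 30 input reads. The difference between bound and unbound L1Md_F was -0.041 with a reciprocal overlap of 25%, 0.19 with KAP1-dependent H3K9me3 regions in place of KAP1 regions (exact permutation p = 0.20) and 0.12 without integrants in genes of the same strand. For L1Md_F2 it was 0.37 with H3K9me3 regions (exact permutation p = 8.3e-04). It was 0.45 without the most read bound and the most read unbound integrant.

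With TE scaling L1Md_F changed by 0.011 in WT (edgeR adjusted p = 1), and the response differences in TET TKO were 0.15 for L1Md_F2 (adjusted p = 0.58) and 0.30 for L1Md_F3 (adjusted p = 0.12). It reversed copies in genes of the same strand: L1Md_F -0.35 in DNMT TKO and -0.34 in TET TKO, L1Md_F2 -0.10, -0.39 and -0.0055 in DNMT TKO, TET TKO and WT, and L1Md_F3 -0.15 in TET TKO. Also reversed were unbound L1Md_F in WT (-0.26), L1Md_F under 1 kb in DNMT TKO (-0.27) and WT (-0.64), L1Md_F2 under 1 kb in DNMT TKO (-0.082) and L1Md_F3 of 1 to 5 kb in DNMT TKO, TET TKO and WT (-0.11, -0.087 and -0.031). Without its most read integrant, the shEmpty difference of L1Md_F2 of 1 to 5 kb in DNMT TKO turned from 0.03 to -0.40 (adjusted p = 1.4e-10). For subfamily sums the shift by TE scaling was -0.20 and -0.32 for the response differences of DNMT TKO and TET TKO and 0.12 and -0.01 for their shEmpty levels. Response differences were 0.63 for L1Md_F in TET TKO without genes of the same strand, 0.34 and 0.48 for L1Md_F2 in DNMT TKO without exons and without the most read integrant, and 0.41 for L1Md_F2 in TET TKO without chromosomes 6, 8 and 11. For shEmpty levels L1Md_F in TET TKO gave -0.24 without genes of the same strand, -0.24 without exons and -0.26 without the most read integrant, and L1Md_F2 in DNMT TKO gave -0.14 with integrants of at least 16 reads, -0.24 with limma-voom, -0.13 with TE scaling and -0.20 without genes of the same strand.

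DESeq2 called fewer integrants. The counts in this paragraph show only how the main counts move with the setting. Apart from the DESeq2 rises, whose shares over all TEs stand above, they are given without such a share. The number tested with at least 50 reads is not given either. They therefore support no comparison with other TEs. Rises for L1Md_F, L1Md_F2 and L1Md_F3 were 32, 260 and 53 in WT, 45, 314 and 72 in DNMT TKO and 27, 288 and 62 in TET TKO, and falls 16, 4 and 12. It called 28 larger and 9 smaller responses in DNMT TKO, 18 and 5 in TET TKO, and with shEmpty 72 higher and 159 lower in DNMT TKO and 44 and 34 in TET TKO. With at least 50 reads, where fewer integrants are tested, rises were 289 and 59 for L1Md_F2 and L1Md_F3 in WT, 65, 376 and 103 in DNMT TKO and 39, 308 and 87 in TET TKO, falls in TET TKO 15, response differences in TET TKO 25 and 7, and lower shEmpty levels 244 in DNMT TKO and 72 in TET TKO. Scaling from tested integrants gave 19 falls in DNMT TKO and 38 in TET TKO. limma-voom gave 123 larger and 45 smaller responses in DNMT TKO and 60 larger in TET TKO.

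Leaving out each library in turn, rises in TET TKO ranged from 38 (without TET TKO shEmpty 2) to 64 for L1Md_F and from 74 (without TET TKO shEmpty 1) to 138 for L1Md_F3, and rises in DNMT TKO from 115 (without DNMT TKO shEmpty 2) to 175 for L1Md_F3. Falls ranged from 7 to 15 in DNMT TKO (lowest without shEmpty 2) and from 14 to 25 in TET TKO (lowest without shKap1 2). Larger responses ranged from 49 to 80 in DNMT TKO (lowest without its shEmpty 2) and from 17 to 39 in TET TKO (lowest without its shEmpty 1), smaller ones from 12 to 23 (lowest without DNMT TKO shEmpty 3) and from 7 to 16 (lowest without WT shEmpty 3). Lower shEmpty levels ranged from 238 to 414 in DNMT TKO (lowest without shEmpty 2) and from 42 to 118 in TET TKO (lowest without shEmpty 1), and higher ones in TET TKO from 53 to 85. The response difference of L1Md_F2 ranged from 0.21 to 0.37 in DNMT TKO, where it passed without DNMT TKO shKap1 1 or WT shEmpty 2, and from 0.37 to 0.57 in TET TKO, and its shEmpty difference in DNMT TKO from -0.29 to -0.16.

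Same-numbered libraries of the hairpins correlated at 0.56, 0.41 and 0.40 in WT and 0.64, 0.47 and 0.25 in DNMT TKO. In TET TKO, with 2 libraries per hairpin, both numbers gave the same value, -0.04, which counts as 1 value. Of 12 libraries of WT and DNMT TKO, 6 correlated best with their own number. Every replicate 1 library of these genotypes did so, and the misses fell between replicates 2 and 3. The numbers were not taken as a pairing in the main fits and permutations. A difference shared by the replicate 1 libraries is therefore not removed there. With the replicate number as a block, L1Md_F changed by 0.67 in WT, rises in WT were 57, 423 and 86, and no call among the values that answer a comparison changed.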

Other observations

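4 hMeDIP libraries of replicate 2 could not be assigned to a group, because their titles and the files recorded for them disagree, and their values are given singly. KAP1 regions on L1Md_F held 1.33%, 1.40%, 1.51% and 1.43% of the reads over all KAP1 regions in these libraries. Regions on L1Md_F2 held 8.05%, 4.71%, 5.49% and 4.87%, and regions on L1Md_F3 0.524%, 0.543%, 0.604% and 0.552%. For comparison, regions on L1Md_F2 took 4.63% (shEmpty) and 4.81% (shKap1) of these reads in the inputs of replicate 1, and 7.80% (shEmpty) and 5.45% (shKap1) after 5hmC enrichment.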
